A study of Mus musculus with 2 samples.

Results

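The interferon-gamma genes described here are 30 genes of the 55450 in the count matrices, chosen by name. They comprise the cytokine gene Ifng, the receptor genes Ifngr1 and Ifngr2, 4 signalling genes, 9 guanylate-binding protein (GBP) genes, 7 immunity-related GTPase (IRG) genes and 7 other response genes. Their mRNA was counted in single CD45+ immune cells sorted from B16F10 tumours, which grow from a mouse melanoma line injected under the skin. The KO library came from Lyz2-Cre-Kcnj2f/f mice, in which Cre is expressed from the Lyz2 locus of macrophages, monocytes and neutrophils and removes Kcnj2, the gene of the potassium channel Kir2.1. The WT library came from Kcnj2f/f mice, which carry the same floxed alleles. The study asked what Kir2.1 does in the tumour microenvironment. In both groups tumours were taken on day 10 and those of 3 mice were pooled, so there was 1 library per genotype and the labels give no age. No test across mice is possible, every difference below is one between these libraries, and all intervals are 95% intervals that cover counting error only.

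The KO library held 57047535 unique molecular identifiers (UMIs, counted mRNA molecules) in 6356 barcodes, and the WT library held 55219440 UMIs in 9677 barcodes. After filtering, 5687 KO cells with a median of 8021 UMIs and 8936 WT cells with a median of 4398.5 UMIs remained, and the libraries shared 63 barcode sequences, 61 of them kept. Clusters were named from marker genes and carry the suffix -like. At least 200 cells in each library were present in 7 classes, and 8 smaller classes are given as levels only. All 8 macrophage markers were detected in macrophage-like cells (4403 CPM summed in KO, 4243 CPM in WT) and all 7 cDC2 markers in cDC2-like cells (2754 and 2223 CPM). Unnamed clusters held 15.8% of the KO cells and 23.9% of the WT cells, and the orders of levels below are among the named classes. The targeted gene Kcnj2 was at 9.63 CPM (counts of a gene scaled to a common total per class; 83 UMIs) in KO macrophage-like cells, against 23.1 CPM (109 UMIs) in WT. The labels do not say which part of the gene was removed. All 30 genes were detected in both libraries, where they made up 0.324% of the kept KO UMIs and 0.292% of the kept WT UMIs.

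Interferon-gamma is made by activated T cells and natural killer (NK) cells. It binds a receptor whose Ifngr1 chain holds the ligand and whose Ifngr2 chain brings in the kinase Jak2, and the signal is read at gamma-activated sites (GAS) in promoters. The transcription factor Irf1, itself induced, binds interferon-stimulated response elements (ISRE), which type I interferons also use through another complex. Many GBP and IRG genes respond to both kinds of interferon. Their products are GTPases that attack the vacuoles of intracellular microbes, and in tumours their mRNA is used as a sign of an interferon response.

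The promoters of the 30 genes were searched for the letters of these sites, and stretches are printed for some of the matched genes that come up below. RefSeq promoter windows on GRCm38.p6 (250 bases before to 50 after a gene's start) were matched for 22 of the 30 genes, all but Gbp4, Gbp6, Gbp8, Gbp9, Iigp1, Ido1, Batf2 and Wars. A GAS, searched as TTCNNNGAA, which reads the same on both strands, was present in 11 of these 22 genes and in 8.30% of all 32851 promoter windows. An ISRE, searched as GAAANNGAAA on either strand, was present in 12 of the 22 genes and in 3.44% of all windows. Of the 11 matched GBP and IRG genes, 10 held an ISRE and 6 a GAS. Both motifs stood in 6 of the 22 genes and in 0.454% of all windows, and 5 genes had neither, among them the IRG gene Ifi47. A match is only a match of letters, and the 22 genes gave 25 windows, so counts of genes and shares of windows are unlike measures. In the following stretches, read 5′ to 3′ on the gene's strand, capitals mark the GAS and ISRE matches.
Igtp, plus strand, chr11:58199501-58199541: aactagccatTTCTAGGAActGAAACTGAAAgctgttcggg
Irgm2, plus strand, chr11:58214892-58214932: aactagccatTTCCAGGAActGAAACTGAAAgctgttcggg
Tgtp1, minus strand, chr11:48992304-48992344: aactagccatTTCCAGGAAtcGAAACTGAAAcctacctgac
Tgtp2, minus strand, chr11:49064263-49064303: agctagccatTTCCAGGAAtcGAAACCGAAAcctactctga
Irgm1, minus strand, chr11:48871425-48871460: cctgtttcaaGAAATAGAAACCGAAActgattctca
Gbp7, plus strand, chr3:142530220-142530302: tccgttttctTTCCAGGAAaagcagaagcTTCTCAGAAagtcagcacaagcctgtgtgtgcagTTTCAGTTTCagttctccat
Gbp2, plus strand, chr3:142620594-142620623: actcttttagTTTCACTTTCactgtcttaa
Socs1, minus strand, chr16:10785594-10785629: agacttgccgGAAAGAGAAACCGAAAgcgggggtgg
Irf1, plus strand, chr11:53769914-53769942: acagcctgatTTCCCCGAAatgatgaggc
In Igtp, Irgm2, Tgtp1 and Tgtp2 the GAS was followed by an ISRE that began 11 bases after the start of the GAS. Irgm1, Gbp2 and Socs1 held ISRE letters without a GAS in the window, and Irf1 held a GAS without an ISRE.

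The genes also lie in blocks. On GRCm38, Gbp5, Gbp7, Gbp3, Gbp2b and Gbp2 lie within 144 kb of chromosome 3 (chr3:142493978-142638008), and Gbp8, Gbp9, Gbp4 and Gbp6 within 280 kb of chromosome 5 (chr5:105014150-105293698). Irgm1, Tgtp1, Tgtp2 and Ifi47 share 235 kb of chromosome 11 (chr11:48861968-49096974), and Igtp and Irgm2 share 23.2 kb farther along it (chr11:58199556-58222782). Exons of neighbours overlap on the same strand for Igtp and Irgm2 (162 bases) and for Gbp4, Gbp8 and Gbp9 (60 or 61 bases), and Gbp6 shares 1726 exon bases with the gene model Gm43302. Same-strand overlaps also join Gbp7 to Gm43802 (637 bases), Ifng to Gm49751 (336 bases), Tgtp1 to Gm12185 (223 bases) and Ifi47 to Olfr56 (111 bases). Reads of these genes, of the near-identical pair Tgtp1 and Tgtp2 and of the related genes Gbp2 and Gbp2b may have been split or lost in counting. Their separate levels are therefore uncertain.

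Ifng mRNA was found mostly in T and NK cell-like classes and in a cell cycle-led cluster with T cell markers, and the cells that held most of it differed between the 2 libraries. In CD8 T cell-like cells, Ifng was at 268 CPM (398 UMIs) in the KO library, against 240 CPM (1873 UMIs) in WT, a log2 ratio of KO over WT of 0.16 (interval 0.00 to 0.32). In NK cell-like cells it was at 141 CPM in KO versus 155 CPM in WT, a log2 ratio of -0.13 (-0.40 to 0.14) whose interval spans 0. In CD4 T cell-like cells Ifng was lower in KO, at 161 CPM (235 UMIs) against 287 CPM (850 UMIs) in WT, a log2 ratio of -0.84 (-1.05 to -0.63). The order of levels in KO was CD8 T above CD4 T and NK cell-like cells, and the intervals of CD4 T (141 to 183 CPM) and NK cell-like cells (124 to 161 CPM) overlapped. In WT the order was CD4 T above CD8 T above NK cell-like cells.

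The share of cells with at least 1 Ifng UMI in the CD8 T cell-like class was 53.1% in KO (47.0 to 59.1; median depth 5135 UMIs) and 47.9% in WT (45.2 to 50.5; 5412 UMIs). It was 27.9% of KO and 35.3% of WT CD4 T cell-like cells (medians of 3982 and 4328 UMIs), and 32.5% of KO and 28.0% of WT NK cell-like cells (4566 and 3654 UMIs). B cell-like cells, which should lack Ifng, gave 0.255% in KO and 1.38% in WT (3154 and 2432 UMIs). Thinning all cells to 1000 UMIs left shares of 17.5% in KO and 16.4% in WT for CD8 T cell-like cells, 11.6% and 15.3% of CD4 T cell-like cells, and 11% in both libraries' NK cell-like cells. The difference in CD4 T cell-like cells also lay in the counts per positive cell, which averaged 2.47 UMIs in KO and 3.65 UMIs in WT.

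A cluster led by cell cycle genes, with T cell markers (189 KO and 396 WT cells), was kept apart from the named classes and held the highest Ifng level in the KO library. Ifng was at 374 CPM (353 to 396) there in KO, against 219 CPM in WT, a log2 ratio of 0.77 (0.64 to 0.90). Without its cells of at least 40 Ifng UMIs, it was at 166 CPM (498 UMIs) in KO against 182 CPM (682 UMIs) in WT. The ratio was then -0.13 (-0.30 to 0.04). This setting, chosen after seeing the data, removes 9 KO and 2 WT cells by their Ifng count. Because cells were removed by the measured count itself, it cannot show where the difference lay. Without the 5 cells richest in Ifng in each library, the cluster's ratio was 0.52 (0.36 to 0.68). Thinning the cluster's cells to 1000 UMIs gave 0.23 (-0.25 to 0.69). This cluster held 52.2% of all Ifng UMIs of the KO library and 17.8% of those of the WT library. CD8 T cell-like cells held 17.1% of the KO and 40.3% of the WT Ifng UMIs, CD4 T cell-like cells 10.1% and 18.3%, and NK cell-like cells 10.3% and 4.95%. The shares of cells with Ifng in the cluster were close, at 41.3% in KO (34.2 to 48.6) and 40.7% in WT (35.8 to 45.7). Positive cells averaged 15.5 UMIs in KO and 5.14 UMIs in WT, at median depths of 14948 and 7299.5 UMIs per cell in the cluster. In KO, 9 cells with at least 40 Ifng UMIs each held 713 UMIs, 30.7% of the library's Ifng. All 9 lay in this cluster and carried Cd3 and Cd8 UMIs, and none carried an NK marker UMI. In WT, 3 such cells held 203 UMIs, 4.37% of the library's Ifng. Cells of the cluster with Cd3 and Cd8 UMIs held 96.5% of its Ifng in KO and 92.6% in WT. A fixed marker gate for CD8 T cells (486 KO and 2144 WT cells), which takes in such cells, gave a log2 ratio of Ifng of 0.96, and thinning the CD8 T cell-like cells to 1000 UMIs gave -0.06. Over all kept cells Ifng was at 41.4 CPM in KO versus 85.6 CPM in WT, a log2 ratio of -1.05, and without the cells of at least 40 Ifng UMIs at 28.8 and 81.9 CPM, while CD8 T cell-like cells were 4.84% of the KO and 15.6% of the WT cells.

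**Figure D1:**
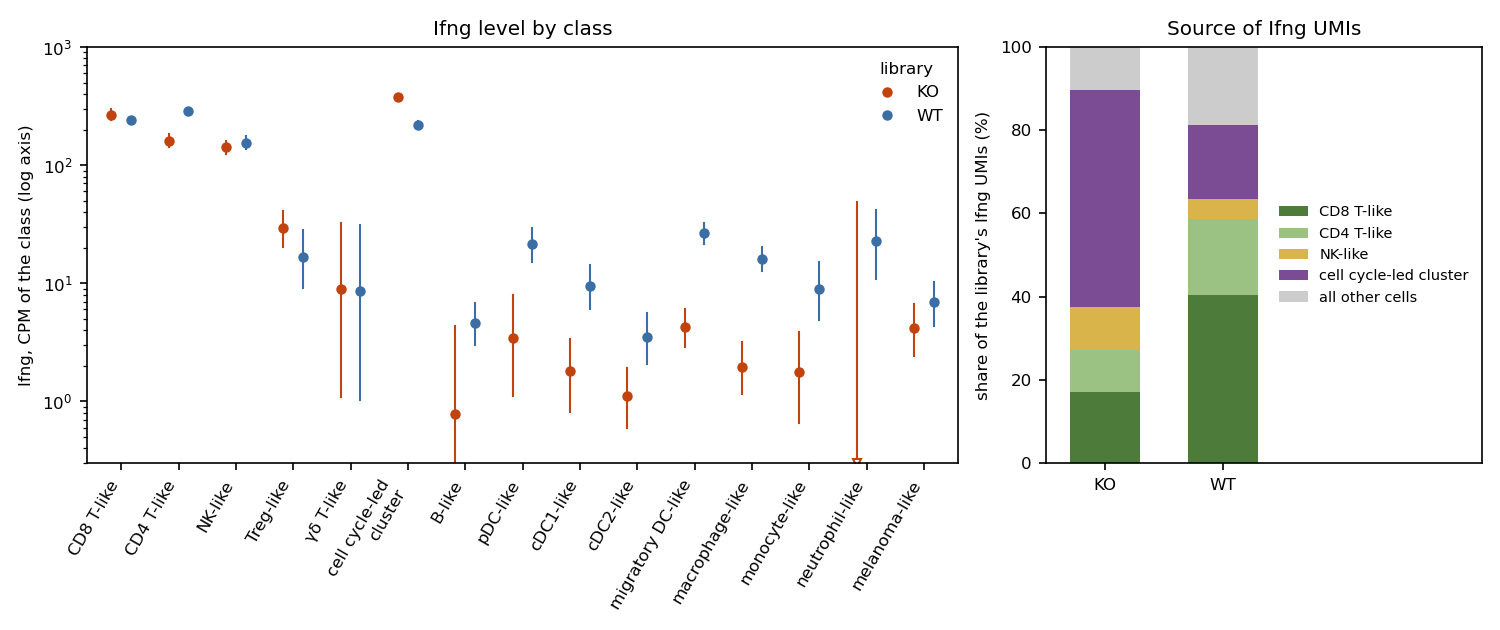
Left, Ifng in CPM of each class on a log axis, with 95% counting intervals, KO left of WT in each class; the open triangle marks a count of 0; right, the share of each library's Ifng UMIs by source. The cell cycle-led cluster held 52.2% of the KO and 17.8% of the WT Ifng UMIs, and CD8 T cell-like cells 17.1% and 40.3%.

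Outside T and NK cells the few Ifng UMIs were fewer in the KO library. Macrophage-like cells had 17 Ifng UMIs (1.97 CPM) in KO, against 76 UMIs (16.1 CPM) in WT, and migratory dendritic cell (DC)-like cells 30 UMIs (4.26 CPM) in KO against 92 UMIs (26.4 CPM) in WT. The summed level of 6 T cell markers moved the same way, with 38.2 CPM in KO versus 205 CPM in WT for macrophage-like cells, and 98.4 CPM in KO versus 425 CPM in WT for migratory DC-like cells. All 6 markers were detected in both libraries of the macrophage-like class and each was lower in KO there. Their part in the Ifng counts of these classes was not tested.

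The genes of the 2 receptor chains had nearly opposite patterns over cell types. Ifngr1 was highest in NK cell-like cells, at 1032 CPM in KO versus 1027 CPM in WT, followed in KO by regulatory T cell-like cells (974 and 858 CPM), CD4 T cell-like cells (811 and 729 CPM), gamma-delta T cell-like cells (792 and 731 CPM) and CD8 T cell-like cells (662 and 584 CPM). It was lowest in melanoma-like cells, at 31.0 CPM in KO versus 46.1 CPM in WT, with 54.8 and 82.4 CPM in plasmacytoid DC (pDC)-like cells and 76.3 and 89.0 CPM in B cell-like cells. Ifngr2 was close to absent from CD8 T, CD4 T and NK cell-like cells, but not from all T cells. In the cell cycle-led cluster, which held most of the KO Ifng, it was at 21.3 CPM (69 UMIs) in KO and 15.6 CPM (59 UMIs) in WT. Regulatory T cell-like cells held it at 16.3 and 35.7 CPM, and gamma-delta T cell-like cells at 40.3 and 47.0 CPM. CD8 T cell-like cells held 3 Ifngr2 UMIs in KO (2.02 CPM) and 18 in WT (2.31 CPM), CD4 T cell-like cells 8 (5.47 CPM) and 7 (2.37 CPM), and NK cell-like cells 3 (1.77 CPM) and 12 (8.08 CPM). Its highest levels among the named classes were in monocyte-like cells (100 CPM in KO, 92.0 CPM in WT), macrophage-like cells (95.4 and 90.6 CPM) and type 2 conventional DC (cDC2)-like cells (86.9 and 95.4 CPM), and 1 unnamed cluster reached 95.4 CPM in KO and 114 CPM in WT. Melanoma-like cells held Ifngr2 at 57.0 CPM in KO versus 65.9 CPM in WT. Pooled over CD8 T, CD4 T and NK cell-like cells and set against pooled cDC2, macrophage and migratory DC-like cells, Ifngr1 had a log2 ratio of 1.79 in KO and 1.35 in WT, and Ifngr2 of -4.82 in KO and -4.87 in WT.

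Between the libraries the receptor genes that could be counted differed little in the 7 compared classes. No receptor gene with at least 50 UMIs passed a log2 ratio of 0.5 in either direction in the 7 compared classes. The largest difference among these was that of Ifngr1 in migratory DC-like cells, at 129 CPM in KO versus 172 CPM in WT, a log2 ratio of -0.41 (-0.56 to -0.26). Its sign depended on the setting, since the ratio was 0.10 with fixed marker gates (UMIs of defining genes) in place of clusters, 0.08 with cells thinned to 1000 UMIs and -0.21 with a mean of cells. In macrophage-like cells, where the Cre driver is active, Ifngr1 had a log2 ratio of -0.02 (-0.13 to 0.10) and Ifngr2 of 0.07 (-0.10 to 0.25).

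**Figure D2:**
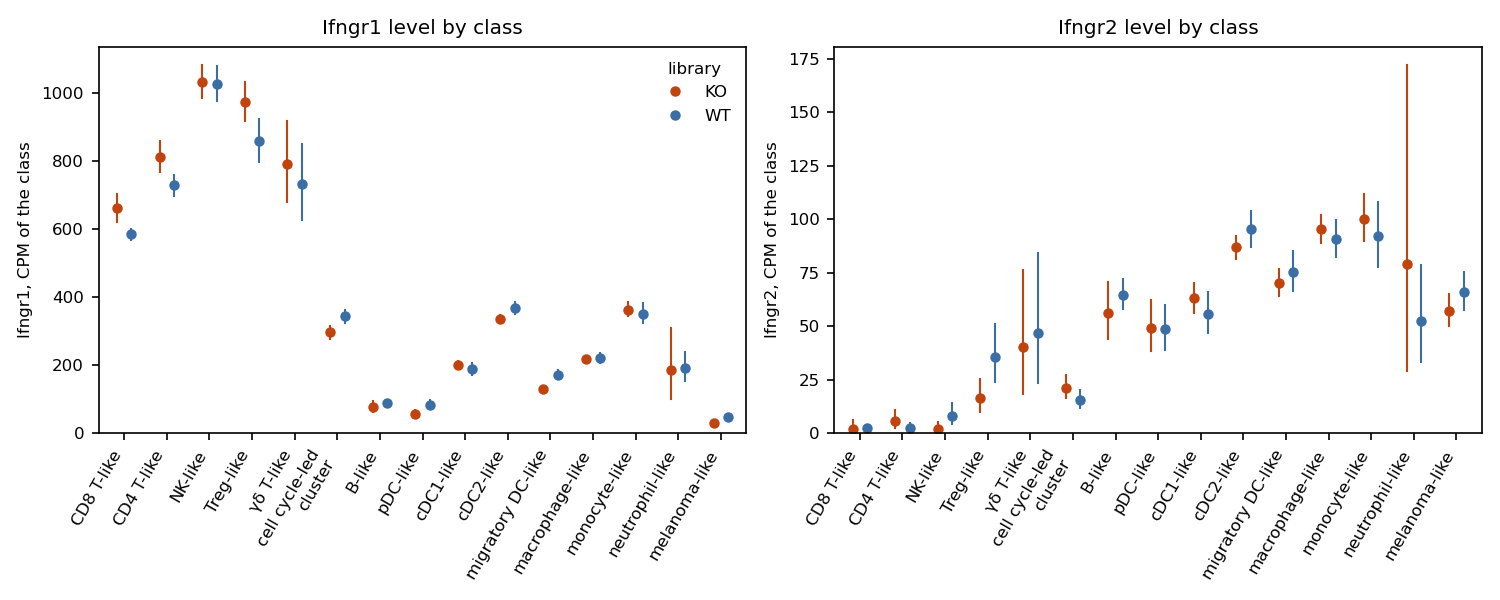
Ifngr1 (left) and Ifngr2 (right) in CPM of each class with 95% counting intervals, KO left of WT. Ifngr1 was highest in NK cell-like cells (1032 CPM in KO, 1027 CPM in WT), whereas Ifngr2 was near 0 in CD8 T, CD4 T and NK cell-like cells and, among the named classes, highest in monocyte-like, macrophage-like and cDC2-like cells.

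The signalling genes were spread over all classes, with Batf2 as the exception. Jak2 was highest in migratory DC-like cells, at 488 CPM in KO versus 375 CPM in WT. Irf1 lay between 76.3 and 553 CPM in the named immune classes of the KO library and between 78.8 and 333 CPM in those of WT, with neutrophil-like cells highest in both (42 and 146 UMIs). Socs1, a feedback inhibitor of Jak kinases, was at 62.2 CPM in KO versus 30.4 CPM in WT CD4 T cell-like cells. Batf2, an AP-1 family transcription factor of interferon-activated myeloid cells, was at 37.0 CPM in KO versus 15.9 CPM in WT cDC2-like cells and at 32.0 and 21.9 CPM in macrophage-like cells. CD8 T, CD4 T, NK and B cell-like cells together gave at most 4 Batf2 UMIs in any class and library.

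The GBP genes of chromosome 5 shared a pattern over T, NK and myeloid cells, whereas those of chromosome 3 did not. All 4 genes of the chromosome 5 block were higher in pooled CD8 T, CD4 T and NK cell-like cells than in the pooled myeloid classes in both libraries. Gbp6 showed this most, with a log2 ratio of lymphoid over myeloid CPM of 2.96 in KO and 2.90 in WT, and Gbp4 (1.16 and 1.51), Gbp8 (1.54 and 1.35) and Gbp9 (1.01 and 1.38) followed. On chromosome 3, Gbp2 (-2.29 in KO and -1.77 in WT) and Gbp5 (-1.5 and -1.68) were higher in the myeloid classes, Gbp3 lay near 0 (-0.43 and -0.17) and Gbp7 was higher in the lymphoid ones (0.91 and 1.40). Gbp2b had only 102 UMIs in the whole KO library and 82 in WT. CD8 T, CD4 T and NK cell-like cells held 0, 1 and 1 of them in KO and 1, 6 and 0 in WT. Gbp2b had 24 UMIs in KO and 10 in WT cDC2-like cells, and 0 and 20 in B cell-like cells. Gbp2 was highest in macrophage-like cells (403 CPM in KO, 306 CPM in WT), as Gbp5 was in KO (146 CPM, against 111 CPM in WT), and Gbp7 was highest in regulatory T cell-like cells (324 and 280 CPM). Among the named classes Gbp4 was highest in gamma-delta T cell-like cells, at 215 CPM in KO versus 248 CPM in WT, while 1 unnamed cluster held more, with 18 UMIs in KO and 268 CPM (182 UMIs) in WT.

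Among the named classes the IRG genes had their highest levels in T cell-like ones in both libraries, except Irgm1 in WT, which was highest in type 1 conventional DC (cDC1)-like cells (68.6 CPM, against 62.9 CPM in CD4 T cell-like cells), with 86.8 CPM in an unnamed cluster. Igtp, a regulatory IRG, was at 330 CPM in KO versus 213 CPM in WT regulatory T cell-like cells and at 160 and 165 CPM in CD4 T cell-like cells. Ifi47 was at 249 CPM in KO versus 196 CPM in WT CD8 T cell-like cells. Iigp1, an effector IRG, followed another order, with 312 CPM in KO and 276 CPM in WT regulatory T cell-like cells, 191 and 123 CPM in pDC-like cells, 139 and 155 CPM in cDC1-like cells and only 5.31 and 9.43 CPM in NK cell-like cells. Summed over the 16 GBP and IRG genes, regulatory T cell-like cells were highest of the named classes (1807 CPM in KO, 1623 CPM in WT). Gamma-delta T cell-like cells (1682 and 987 CPM) came next in KO, CD4 T (1354 and 1259 CPM) and CD8 T cell-like cells (1267 and 1154 CPM) stood next in WT, and B cell-like cells were lowest of the 7 compared classes (269 and 312 CPM). In regulatory T cell-like cells 99.2% of KO and 94.7% of WT cells had at least 1 GBP or IRG UMI, and 81.0% and 76.7% did so when thinned to 1000 UMIs (median depths before thinning of 6953.5 and 5747 UMIs). Neutrophil-like cells, with 24 KO and 145 WT cells, gave 41.7% and 30.3%, and 17.4% and 12.1% when thinned (medians of 2721 and 2283 UMIs).

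**Figure D3:**
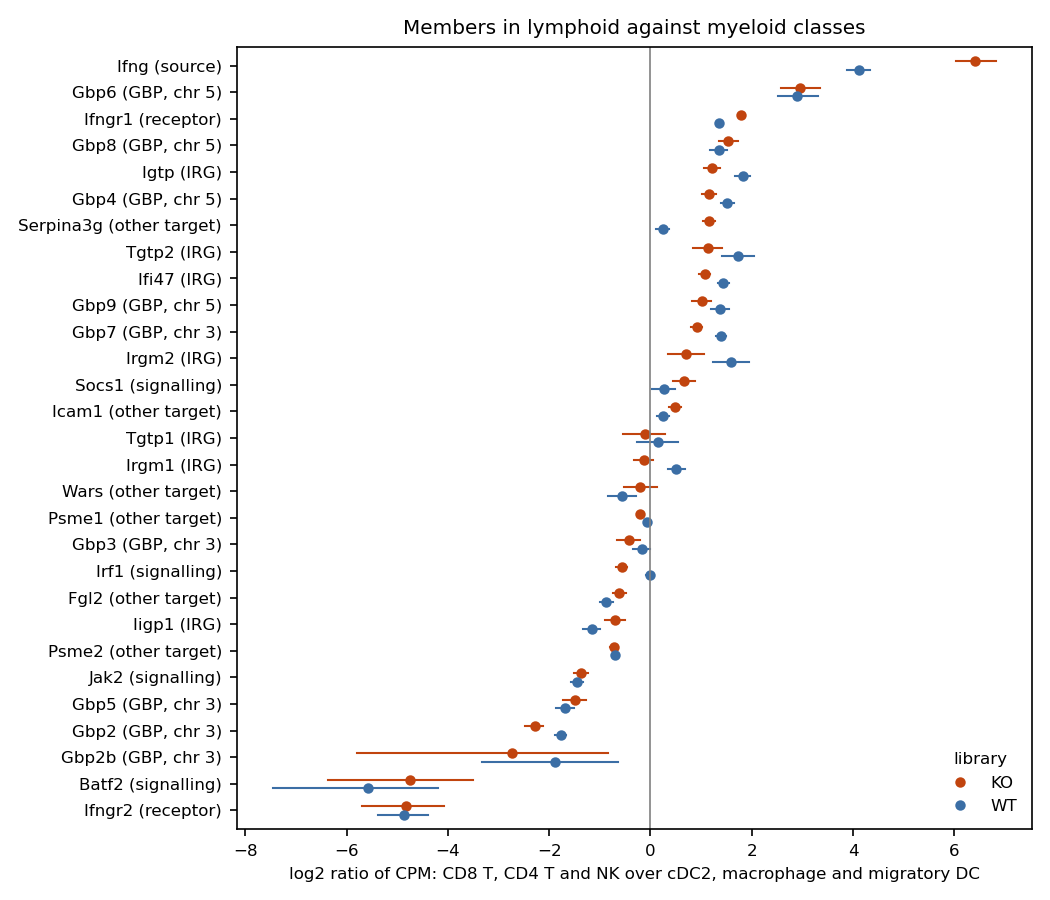
For each gene, the log2 ratio of its CPM in pooled CD8 T, CD4 T and NK cell-like cells over pooled cDC2, macrophage and migratory DC-like cells, with 95% counting intervals, KO above WT; Ido1 is left out for its low counts. Gbp4, Gbp6, Gbp8 and Gbp9 of chromosome 5 lie right of 0, and Gbp2 and Gbp5 of chromosome 3 lie left of it, in both libraries.

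Of the other response genes, the proteasome activator subunits Psme1 and Psme2 were highest in DCs. Psme1 reached 1306 CPM in KO and 1351 CPM in WT cDC1-like cells, and Psme2 1223 and 1318 CPM in migratory DC-like cells. Fgl2 was highest in cDC1-like cells (388 CPM in KO, 340 CPM in WT), and the protease inhibitor gene Serpina3g stood at 275 and 129 CPM in regulatory T cell-like cells. The adhesion molecule gene Icam1 was at 198 CPM in KO versus 149 CPM in WT NK cell-like cells. Wars, the tryptophanyl-tRNA synthetase gene, was highest in melanoma-like cells (64.7 and 58.7 CPM). Ido1, which encodes a tryptophan-degrading enzyme that interferon-gamma can induce, was barely seen, with 18 UMIs in the kept KO cells and 8 in the kept WT cells.

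Of the 7 compared classes, cDC2-like cells (804 KO and 430 WT cells) had the most genes that differed between the libraries, and most of these were IRG and GBP genes, all higher in KO. A gene was counted as higher or lower when it had at least 50 UMIs over both libraries and a log2 ratio of at least 0.5 in size. By this rule 14 of 26 genes were higher in KO and 0 were lower, beside 6.98% higher and 5.22% lower among all genes in these cells. The median log2 ratio was 0.51, against 0.00 over all genes. All 7 IRG genes were among the higher ones, as were 5 of the 7 GBP genes that could be counted. The summed GBP and IRG level was 1069 CPM in KO (1050 to 1088) and 717 CPM in WT, a log2 ratio of 0.58 (0.52 to 0.63).

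Among the effector IRGs of cDC2-like cells, Iigp1 was at 134 CPM (1546 UMIs) in KO, against 83.4 CPM (425 UMIs) in WT, a log2 ratio of 0.68 (0.53 to 0.84). Tgtp1 was at 18.6 CPM in KO versus 8.83 CPM in WT, a ratio of 1.08 (0.61 to 1.57), and Tgtp2 at 19.3 and 9.42 CPM, a ratio of 1.03 (0.58 to 1.52). Ifi47 was at 116 CPM in KO versus 72.4 CPM in WT, a ratio of 0.68. The regulatory IRGs differed likewise. Irgm1 was at 76.1 CPM in KO versus 46.7 CPM in WT (0.71), Igtp at 61.7 and 39.4 CPM (0.65), and Irgm2 at 12.6 and 6.67 CPM (0.92). The counting intervals of all 7 IRG ratios lay above 0.

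The GBP genes of cDC2-like cells differed by less. Gbp7 was at 113 CPM in KO versus 78.5 CPM in WT (0.53, interval 0.36 to 0.69), Gbp5 at 78.0 and 54.5 CPM (0.52), Gbp4 at 61.7 and 43.4 CPM (0.51), Gbp3 at 47.9 and 32.8 CPM (0.55) and Gbp9 at 20.3 and 13.9 CPM (0.55). Gbp2, the most counted of them, fell just short of the limit at 281 CPM in KO versus 204 CPM in WT (0.47, interval 0.36 to 0.57), and Gbp8 had 276 UMIs in KO and 102 UMIs in WT (0.25, interval -0.08 to 0.60). Gbp6 and Gbp2b had 36 and 34 UMIs over both libraries and were not counted.

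The 2 highest ratios in cDC2-like cells were those of signalling genes. Socs1 was at 25.6 CPM (296 UMIs) in KO versus 10.6 CPM (54 UMIs) in WT, a log2 ratio of 1.27 (0.85 to 1.72), and Batf2 at 37.0 and 15.9 CPM, a ratio of 1.22 (0.87 to 1.58). Irf1 was at 209 CPM in KO versus 154 CPM in WT (0.44, interval 0.33 to 0.56), below the limit. The receptor genes lay on the other side of 0, with Ifngr1 at 335 CPM in KO versus 367 CPM in WT and Ifngr2 at 86.9 and 95.4 CPM, both at -0.13. Of the 6 other response genes counted, 0 passed the limit. Psme2 (0.04) and Wars (0.06) were the lowest of them, at 479 CPM in KO versus 465 CPM in WT and at 27.0 and 25.9 CPM.

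**Figure D4:**
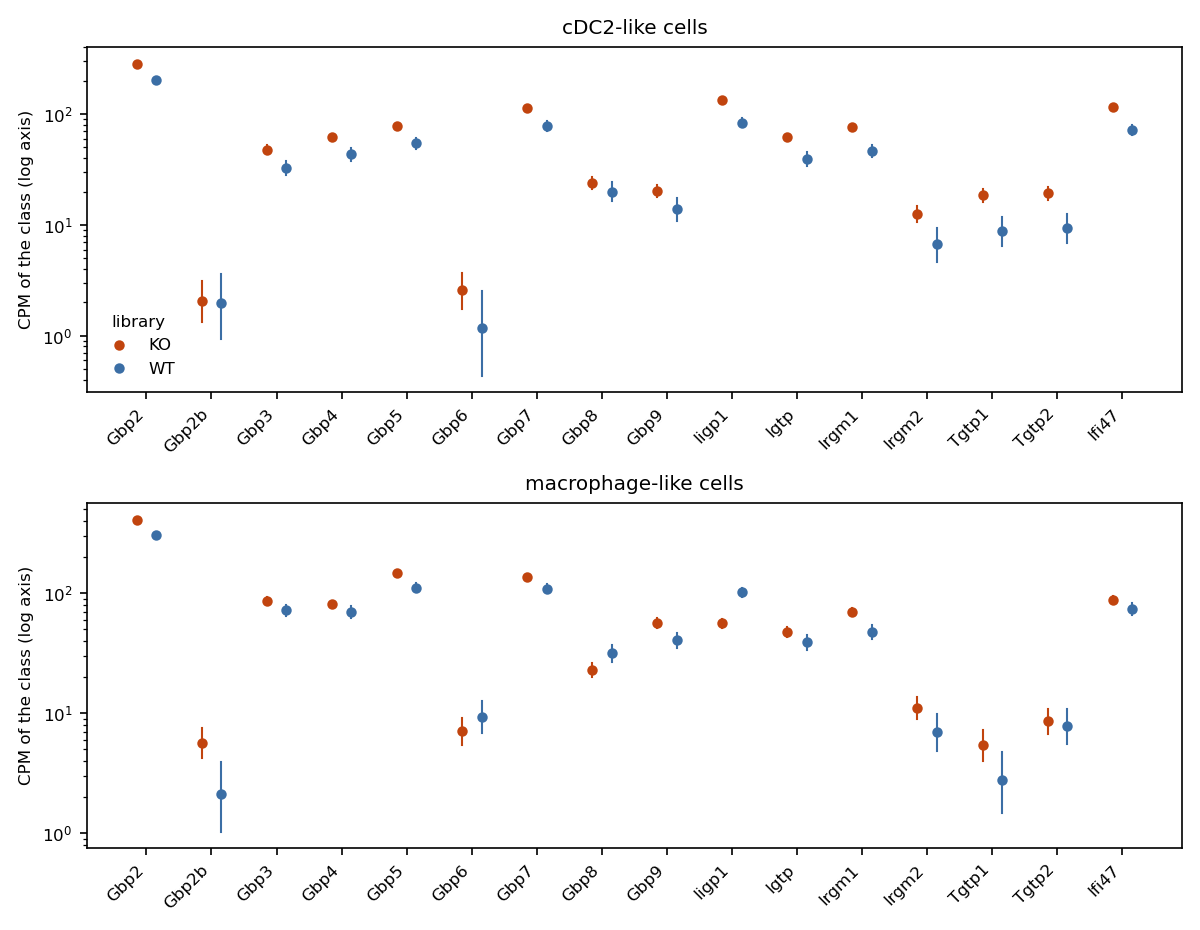
GBP and IRG genes in cDC2-like (top) and macrophage-like cells (bottom), in CPM of the class on a log axis with 95% counting intervals, KO left of WT. In cDC2-like cells every IRG gene was higher in KO, whereas in macrophage-like cells Iigp1 was lower in KO (56.0 CPM, against 101 CPM in WT).

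The difference in cDC2-like cells was not alike over cell depth. In cells with at least 6000 UMIs the summed GBP and IRG level was 1074 CPM in KO (753 cells) and 698 CPM in WT (381 cells). In cells below 6000 UMIs it ran the other way, at 712 CPM in KO (585 to 859, 51 cells) and 1206 CPM in WT (1053 to 1375, 49 cells). When all cells were thinned to 1000 UMIs, shallow cells weighed as much as deep ones. With this setting 5 genes passed the limit and the median was 0.17. Thinning also lowers the UMIs per gene, so fewer genes can reach the minimum for being counted. The thinned values may therefore rest on other genes than the unthinned ones, and their change cannot be assigned to the weight of shallow cells. With a mean over cells 7 genes passed the limit. The marker content of the class also differed between the libraries. The 7 migratory DC markers summed to 270 CPM in KO and 162 CPM in WT with all 7 higher in KO, the 6 T cell markers to 17.3 and 68.3 CPM, the 6 B cell markers to 6.66 and 47.3 CPM, and the 5 erythroid markers to 0.346 and 731 CPM. Their part in the difference was not tested.

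Macrophage-like cells (826 KO and 544 WT cells) showed a smaller and mixed difference. Of 29 genes counted, 7 were higher in KO and 2 were lower, beside 9.05% higher and 7.33% lower among all genes, with a median of 0.27 against 0.01. The highest ratios were those of Gbp2b (5.68 CPM in KO, 2.12 CPM in WT; 1.42, interval 0.42 to 2.57), Tgtp1 (5.45 and 2.76 CPM; 0.98), Socs1 (28.4 and 18.0 CPM; 0.66) and Irgm2 (11 and 7.0 CPM; 0.65). Gbp2 was at 403 CPM in KO versus 306 CPM in WT (0.39, interval 0.30 to 0.48), and Irf1 at 347 and 276 CPM (0.33). The lowest ratios were those of Ifng, described above, Iigp1, Gbp8 (22.8 and 31.4 CPM; -0.46) and Gbp6 (7.07 and 9.34 CPM; -0.40). Iigp1 was at 56.0 CPM (483 UMIs) in KO, against 101 CPM (476 UMIs) in WT, a log2 ratio of -0.85 (-1.04 to -0.67). In the smaller monocyte-like class Iigp1 was at 7.99 CPM (27 UMIs) in KO versus 43.4 CPM (68 UMIs) in WT. The 6 B cell markers summed in macrophage-like cells to 12.4 CPM in KO versus 141 CPM in WT, each lower in KO like the T cell markers given above, and their part in these differences was not tested. The summed IRG level in macrophage-like cells was nearly equal, at 285 CPM in KO versus 279 CPM in WT. With fixed marker gates in place of clusters the median was 0.02 and Irgm2 turned to -0.21, and with thinning Gbp8 turned to 0.07. Gbp2b fell below the limit, to 0.24 with gates and 0.38 with thinning. Irf1 was at 0.00 with gates and 0.52 with a mean of cells.

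Migratory DC-like cells (661 KO and 441 WT cells) showed little difference. Of 27 genes counted, 1 was higher in KO (Batf2, 11.4 CPM in KO and 6.6 CPM in WT; 0.78, interval 0.10 to 1.52) and 1 was lower (Ifng), beside 7.30% higher and 9.52% lower among all genes. The median was -0.04, against -0.05. Irgm1, at 31.2 CPM in KO versus 22.1 CPM in WT, lay just inside the limit (0.50 after rounding), and Jak2 (0.38) and Ifi47 (57.8 and 46.8 CPM; 0.31) were next. Ifngr1, Gbp8 (31.1 and 41.3 CPM) and Serpina3g (85.0 and 113 CPM) were each at -0.41. Irf1 was at 0.05 and Socs1 at 0.23, and both turned below 0 with marker gates (-0.35 and -0.16) and with thinning (-0.03 and -0.56). All 7 GBP genes counted had ratios below 0, from -0.41 to -0.04.

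In CD8 T cell-like cells the feedback inhibitor Socs1 was higher in KO, while no GBP gene passed the limit. This class (275 KO and 1397 WT cells) had 4 of 26 genes higher and 0 lower, beside 8.45% higher and 9.03% lower among all genes. The 4 were Socs1 (47.8 CPM in KO, 21.3 CPM in WT; 1.17, interval 0.75 to 1.58), Serpina3g (129 and 75.2 CPM; 0.77), Iigp1 (29.6 and 17.7 CPM; 0.75) and Jak2 (78.8 and 51.8 CPM; 0.61). The lowest ratios were those of Gbp2 (61.3 and 74.2 CPM; -0.28), Irf1 (183 and 221 CPM; -0.27), Psme1 (685 and 806 CPM; -0.23) and Psme2 (379 and 401 CPM; -0.08). Of these, Gbp2 (0.30) and Psme2 (0.18) turned above 0 with marker gates. The summed GBP and IRG level was 1267 CPM in KO and 1154 CPM in WT, a ratio of 0.13 (0.06 to 0.21). Markers of other cells also differed in this class, with the 7 cDC1 markers at 19.5 CPM in KO versus 6.15 CPM in WT (6 higher, 0 lower), the 6 B cell markers at 21.6 and 48.8 CPM (all lower) and the 6 NK cell markers at 470 and 847 CPM. Their part was not tested.

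In CD4 T cell-like cells, where Ifng was lower in KO, Serpina3g, Socs1, Tgtp1, Tgtp2 and Iigp1 were higher. This class (341 KO and 660 WT cells) had 5 of 26 genes higher and 1 lower (Ifng), beside 7.22% higher and 6.64% lower among all genes. The 4 highest were Serpina3g (132 CPM in KO, 59.5 CPM in WT; 1.15, interval 0.85 to 1.45), Socs1 (62.2 and 30.4 CPM; 1.03, interval 0.60 to 1.47), Tgtp1 (19.8 and 12.2 CPM; 0.70, interval -0.05 to 1.45) and Tgtp2 (39.6 and 24.3 CPM; 0.70). The fifth, Iigp1, was at 129 CPM in KO versus 91.3 CPM in WT (0.50). With marker gates in place of clusters Socs1 was at 0.39, below the limit. After Ifng, the lowest were Irf1 (175 and 236 CPM; -0.43), Wars (13.7 and 17.9 CPM; -0.39) and Icam1 (89.6 and 104 CPM; -0.21). The 8 GBP genes counted lay between -0.14 and 0.16. In this class the 6 NK cell markers summed to 20.5 CPM in KO with 3 at 0, and to 50.7 CPM in WT with none at 0. The 5 erythroid markers were all at 0 in KO and summed to 582 CPM in WT. The 6 regulatory T cell markers summed to 903 CPM in KO and 736 CPM in WT, with 5 higher, and the 6 innate lymphoid cell (ILC2) markers to 275 and 127 CPM, with 5 higher and 0 lower. Their part in the difference was not tested.

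In NK cell-like cells few of the genes differed, and Ifng was not among them. This class (317 KO and 357 WT cells) had 2 of 21 genes higher and 0 lower, beside 5.04% higher and 7.29% lower among all genes. These were Gbp5 (47.2 CPM in KO, 28.3 CPM in WT; 0.74, interval 0.18 to 1.31) and Wars (30.7 and 18.9 CPM; 0.70, interval 0.01 to 1.42). These are a GTPase gene and a tRNA synthetase gene, and the other 19 genes counted lay within the limit. Icam1 (198 and 149 CPM; 0.41) and Gbp3 (36.5 and 28.3 CPM; 0.37) followed, Socs1 was at 0.30 and Irf1 at -0.16. The lowest were Igtp (37.1 and 49.8 CPM; -0.42), Gbp8 (60.1 and 75.4 CPM; -0.33), Gbp7 (139 and 159 CPM; -0.19) and Gbp9 (50.1 and 56.6 CPM; -0.18). The median was 0.09 in NK cell-like, 0.03 in CD4 T cell-like and 0.14 in CD8 T cell-like cells. In NK cell-like cells the 7 migratory DC markers summed to 129 CPM in KO and 62.0 CPM in WT (all higher), the 6 T cell markers to 1269 and 1927 CPM and the 6 B cell markers to 11.2 and 171 CPM (all lower), and the 7 neutrophil markers to 7.66 and 237 CPM. Their part was not tested.

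B cell-like cells (392 KO and 1815 WT cells) had more genes lower than higher in KO, with 1 of 21 genes higher in KO and 8 lower, beside 7.58% higher and 14.7% lower among all genes. The summed GBP level of the chromosome 3 block was lower in KO, at 73.2 CPM versus 154 CPM in WT (-1.07), and that of the chromosome 5 block higher, at 106 and 78.4 CPM (0.43, interval 0.14 to 0.71). The lowest ratios were those of Fgl2, the gene of a fibrinogen-like protein (14.0 CPM in KO, 55.5 CPM in WT; -1.99), Gbp2 (8.56 CPM from 11 UMIs in KO, 31.8 CPM from 172 UMIs in WT; -1.89), Gbp7 (29.6 and 61.4 CPM; -1.05) and Gbp3 (18.7 and 33.5 CPM; -0.84). Gbp9 (44.4 and 25.3 CPM; 0.81), Irgm1 (29.6 and 21.5 CPM; 0.46), Gbp4 (49.0 and 39.0 CPM; 0.33) and Wars (29.6 and 25.7 CPM; 0.20) were highest, Irf1 was at -0.05 and Socs1 at -0.55. The class was made of different clusters in the 2 libraries, since one of its 3 clusters held 12 KO and 364 WT cells. In its largest cluster alone (327 KO and 899 WT cells) 2 genes were lower, Gbp7 was at -0.11 and Fgl2 at -0.14, while Gbp2 was at -1.59. Over the whole class Gbp2 was at -0.89 with marker gates and -0.80 with thinning, and Gbp3 at -0.07 with thinning. T cell markers in the whole class summed to 30.4 CPM in KO and 112 CPM in WT and macrophage markers to 986 and 669 CPM, and their part was not tested.

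**Figure D5:**
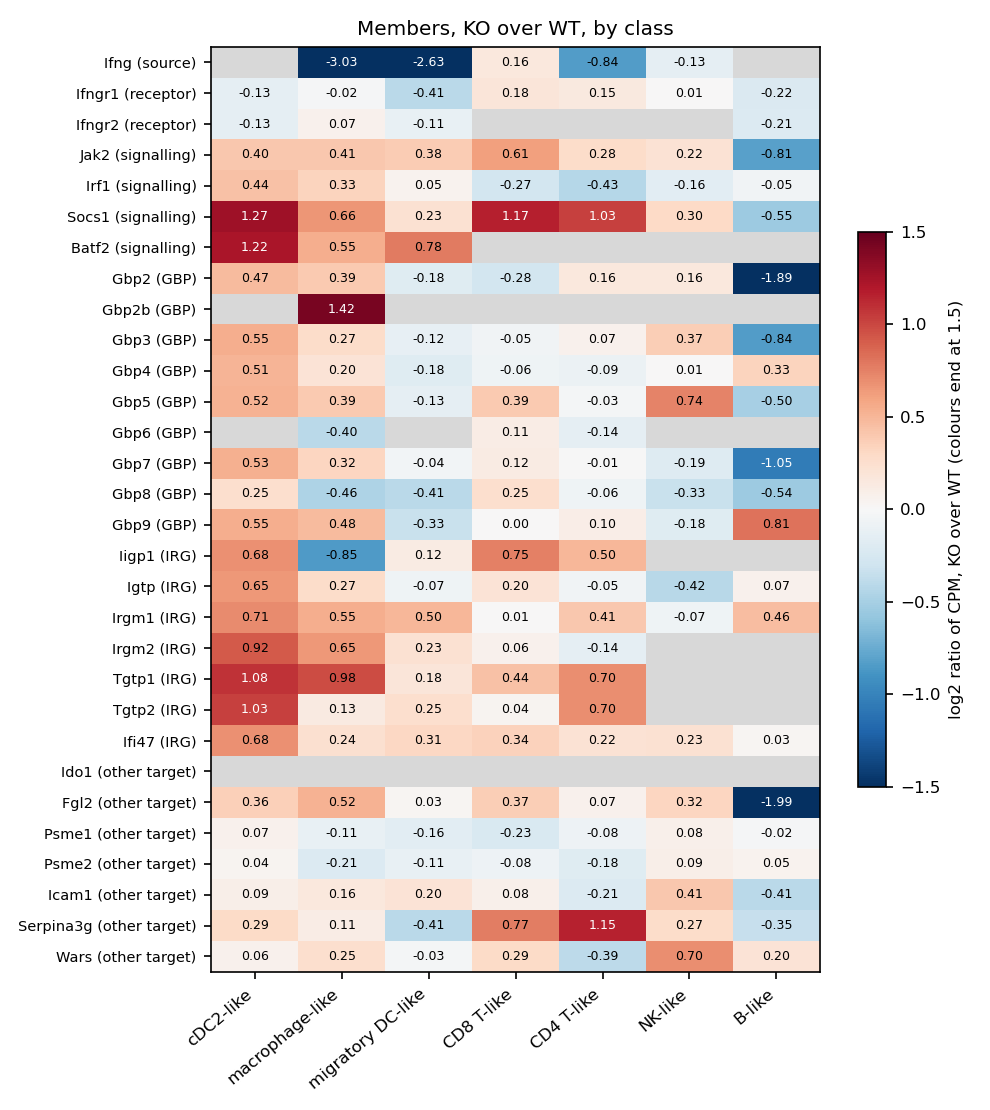
Log2 ratios of KO over WT CPM for the 30 genes by role in the 7 compared classes; red is higher and blue lower in KO, and grey marks genes with fewer than 50 UMIs over both libraries. The IRG rows are red throughout the cDC2-like column, Iigp1 is blue in macrophage-like cells (-0.85), and the B cell-like column holds most of the low values.

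In the smaller classes the levels have wider intervals. Melanoma-like cells (86 KO and 117 WT cells) passed the CD45 sort although they carry tumour cell markers. Their summed IRG level was 139 CPM in KO (128 to 151) and 40.1 CPM in WT, a log2 ratio of 1.79 (1.52 to 2.08). Irgm1 was at 47.0 CPM (191 UMIs) in KO versus 16.2 CPM (54 UMIs) in WT, Iigp1 at 30.2 and 6.29 CPM, Igtp at 26.6 and 5.99 CPM, and Irf1 at 51.6 and 20.1 CPM. Tgtp1 had 20 UMIs in KO and 0 in WT, which makes it at least 5.48-fold higher in KO with 3 counts taken as the floor of the WT class. The class held a median of 766 UMIs per cell in KO and 842 in WT but 4066758 and 3340396 UMIs in all, so a minority of its cells gave most of the counts. Erythroid markers summed to 0.492 CPM in KO and 5572 CPM in WT there, and fibroblast markers to 18.2 and 2208 CPM. Their part in the difference was not tested.

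Among the other small classes, gamma-delta T cell-like cells (52 KO and 65 WT cells) had Iigp1 at 300 CPM (67 UMIs) in KO, against 47.0 CPM (11 UMIs) in WT, and Igtp at 228 CPM (51 UMIs) against 85.5 CPM (20 UMIs). The 6 defining markers of that class were themselves lower in KO (3699 CPM, against 5700 CPM in WT), as were B cell (58.1 and 265 CPM) and neutrophil markers (4.47 and 171 CPM). Regulatory T cell-like cells (128 and 95 cells) had Serpina3g at 275 CPM in KO versus 129 CPM in WT, a log2 ratio of 1.10 (0.78 to 1.42), and Igtp at 0.63 (0.37 to 0.89). Their 6 defining markers were all higher in KO (6480 CPM, against 4439 CPM in WT). The part of these markers in the differences was not tested. The summed GBP and IRG level of cDC1-like cells was equal, at 501 CPM in both libraries, and that of monocyte-like cells was 792 CPM in KO and 816 CPM in WT. In pDC-like cells it was 660 CPM in KO and 604 CPM in WT. In the cell cycle-led cluster, which held most of the KO Ifng, it was lower in KO, at 538 CPM against 706 CPM in WT, a ratio of -0.39 (-0.48 to -0.30), and the chromosome 5 GBP genes there were at 84.7 CPM in KO versus 170 CPM in WT. The make-up of this cluster differed as well. Cells with Cd3 and Cd8 UMIs were 56.1% of its KO and 75.3% of its WT cells, and the 6 T cell markers summed to 3183 CPM in KO and 4130 CPM in WT (all lower). The 7 cDC1 markers summed to 377 and 214 CPM (all higher) and the 7 cDC2 markers to 293 and 129 CPM (6 higher, 0 lower). Their part in the difference was not tested.

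Other genes of the pathway, taken from lists of inducers of Ifng, further targets and type I interferon genes, give the setting. In cDC2-like cells 15 of 20 type I interferon genes were higher in KO and 0 lower, beside 6.98% higher among all genes, with a median log2 ratio of 0.62 that lay above the 0.51 of the 30 genes. The highest were Oasl1 (42.6 CPM in KO, 17.1 CPM in WT; 1.32) and Ifi44 (24.1 and 11 CPM; 1.14), and the lowest Cmpk2 (6.92 and 5.89 CPM; 0.23) and Mx1 (43.7 and 35.1 CPM; 0.31). In macrophage-like cells 17 of 20 were higher and 0 lower, beside 9.05% higher among all genes, with a median of 1.09 against 0.27 for the 30 genes. Oasl1 (227 and 58.4 CPM; 1.96) and Rsad2 (794 and 206 CPM; 1.94) led them, and Isg15 (400 and 333 CPM; 0.27) was the lowest. CD4 T cell-like cells had 9 of 15 and CD8 T cell-like cells 7 of 15 of these genes higher, with none lower in either, beside 7.22% and 8.45% higher among all genes.

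Further interferon-gamma targets included the T cell-attracting chemokine gene Cxcl10, at 601 CPM in KO versus 362 CPM in WT cDC2-like cells (0.73), 1743 and 971 CPM in macrophage-like cells (0.84) and 231 and 96.1 CPM in migratory DC-like cells (1.27). Of the targets counted, 3 of 17 were higher in cDC2-like, 2 of 18 in macrophage-like and 3 of 17 in migratory DC-like cells, and 0 were lower, beside 6.98%, 9.05% and 7.30% higher among all genes, so the macrophage-like count is near its background. The immunoproteasome gene Psmb10 was the lowest in cDC2-like (219 and 228 CPM; -0.06) and macrophage-like cells (176 and 199 CPM; -0.17). Among inducers and regulators of Ifng in CD4 T cell-like cells, 3 of 6 were lower in KO and 0 higher, beside 6.64% lower among all genes. They included the interleukin-12 receptor genes Il12rb1 (15 and 25.4 CPM; -0.75) and Il12rb2 (30.8 and 48.0 CPM; -0.64), while Stat4 was at 315 CPM in KO versus 281 CPM in WT (0.17). In CD8 T cell-like cells, where Ifng differed little, Il12rb2 was at -0.87 (16.8 and 30.9 CPM) and Eomes, a transcription factor of cytotoxic T cells, at 0.74 (76.8 and 45.9 CPM).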

How the data were processed

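The authors deposited raw UMI counts per gene and cell barcode, whole numbers with no normalization, 1 matrix per genotype. Per the submitters' processing notes, the tools were Seurat 4.0.1, Cell Ranger 3.1.0 and bcl2fastq 2.20, and the genome was GRCm38, whereas per the file headers the matrices came from Cell Ranger 4.0.0. Barcodes held at least 500 UMIs. All 55450 gene IDs matched GENCODE M21, which gave the coordinates.

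Cells under 200 genes or over 15% mitochondrial UMIs were removed, 665 KO and 734 WT barcodes of them for mitochondrial content. Scrublet called 1 KO and 0 WT doublets and so did not work as a filter. Cells were clustered (scanpy 1.11.5, leidenalg 0.10.2, 2000 variable genes, 30 components, 15 neighbours, resolution 1.0) with the 30 genes and the other interferon genes left out of the variable genes. Clusters were named from marker lists with at least 3 markers; the limits for leaving one unnamed were set with clusters in view. Raw counts were summed per class and library and scaled to CPM, with exact Poisson intervals, exact conditional binomial intervals for ratios and Clopper-Pearson intervals for shares, all at 95%. Ratios were set against the limit before rounding. In each class the genes described are Ifng, the receptor genes, Irf1, Socs1 and the 4 highest and 4 lowest ratios; other genes named with values were chosen after these were seen. The ratio step was checked on simulated counts. The alternatives changed the filters on cells and doublets, the clustering, the scaling, the depth of cells, the least UMIs and the limit. The 30 genes and all lists were chosen with earlier results of these data known.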

Additional observations from a re-analysis of the deposited data

Results flagged for a closer look

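Several genes lay past the limit in opposite directions in 2 classes. With 1 library per genotype, none of these differences between classes was tested, and the sign of a ratio rests on a single library of each genotype. The log2 ratio of Iigp1 was 0.50 in CD4 T cell-like, 0.75 in CD8 T cell-like and 0.68 in cDC2-like cells, but -0.85 in macrophage-like cells, where its alternatives lay on the same side of 0 with marker gates (-0.74) and in cells with at least 6000 UMIs (-0.90).

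The other opposite pairs all involve B cell-like cells. Jak2 was at 0.61 in CD8 T cell-like and -0.81 in B cell-like cells. Gbp3 was at 0.55 and Gbp7 at 0.53 in cDC2-like cells, against -0.84 and -1.05 in B cell-like cells. Fgl2 was at 0.52 in macrophage-like and -1.99 in B cell-like cells. In the largest B cell-like cluster alone Gbp3 was at -0.44, Gbp7 at -0.11 and Fgl2 at -0.14.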

How the results depend on the processing

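No paired analysis was possible because each genotype has 1 library. Over 16 alternative settings, 880 of 1014 values stayed within the counting interval or within 1.5 times a count, 131 moved, and 3 that had lain past the limit of 0.5 changed sign; the cause was not tested in any case. These 3 were Irgm2 in macrophage-like cells with marker gates (-0.21), Socs1 in B cell-like cells thinned to 1000 UMIs (0.06) and Ifng in the cell cycle-led cluster without cells of at least 40 Ifng UMIs (-0.13). A further 38 of the 804 log2 ratios, none above 0.46 in size as reported, changed sign too, so direction is not fixed inside the limit. Of all 41 sign changes, 14 came with marker gates, 13 with thinning and 6 with a mean of cells. They include Ifngr1 in migratory DC-like cells (0.10 and 0.08 with gates and thinning), Gbp2 in CD8 T cell-like cells (0.30, gates), and Wars (-0.57) in cDC2-like and Gbp8 (0.07) in macrophage-like cells with thinning. The median log2 ratio of the genes counted in cDC2-like cells lay between 0.17 and 0.66, and the count of higher genes between 4 and 19. The genes counted need not be the same in each setting. Ifng over all kept cells moved to -0.84 with a mean of cells and -1.14 with thinning. It moved to -1.30 without the 5 cells richest in Ifng in each library, and to -1.51 without cells of at least 40 Ifng UMIs. In the cell cycle-led cluster it moved to 0.52 with a mean of cells, 0.23 with thinning and 0.52 without the 5 richest cells, settings added for this cluster after seeing the data.

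With marker gates, the genes higher and lower numbered 3 and 13 in B cell-like, 3 and 4 in macrophage-like and 2 and 4 in migratory DC-like cells, and 2 were lower in CD8 T, 4 in CD4 T and 1 in NK cell-like cells. The macrophage-like median was 0.02, and the log2 ratio of Ifng was 0.96 in CD8 T and -0.61 in CD4 T cell-like cells. The gates held 68.4% (CD8 T) and 6.37% (NK) of the KO Ifng UMIs and 56.8% (CD8 T), 14.0% (CD4 T) and 2.02% (NK) of those of WT.

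With cells thinned to 1000 UMIs, 5 genes were higher in cDC2-like cells (median 0.17) and 3 in CD4 T cell-like cells. B cell-like cells had 2 higher and 4 lower, macrophage-like cells 3 and 1, migratory DC-like cells 0 and 4, and NK cell-like cells 1 lower. Thinning lowers the UMIs per gene, so these counts may rest on fewer genes than those without thinning. Ifng in CD8 T cell-like cells was at -0.06, and the shares of Ifng UMIs were 24.7% (CD8 T), 21.4% (CD4 T) and 17.7% (NK) in KO and 23.0% (CD4 T) and 5.91% (NK) in WT. With a mean of cells, 7 genes were higher in cDC2-like and 2 in migratory DC-like cells, and NK cell-like cells had 1 higher and 1 lower.

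With a limit of 1, the genes higher numbered 1 in CD8 T, 2 in CD4 T, 0 in NK, 0 in B, 4 in cDC2, 1 in macrophage and 0 in migratory DC-like cells, and those lower 0 in CD4 T, 3 in B and 1 in macrophage-like cells. With at least 20 UMIs, 2 genes were lower in NK, 1 in cDC2 and 2 in migratory DC-like cells, and 2 were higher in B cell-like cells. With at least 100 UMIs, 1 was higher in NK and 1 lower in macrophage-like cells. Without the 6% highest doublet scores, 1 gene was lower in cDC2-like cells, and CD8 T and CD4 T cell-like cells held 44.4% and 19.9% of the WT Ifng UMIs. Both a mitochondrial limit of 10% and the use of interferon genes in clustering gave 2 higher in B cell-like and 0 higher and 2 lower in migratory DC-like cells, and the second also gave 3 higher in CD4 T cell-like cells. At resolution 1.5, 2 were lower in CD4 T and 2 higher in migratory DC-like cells, the last also with scaling by the median of gene ratios. The largest B cell-like cluster alone, chosen after seeing the data, had 2 lower.

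Depth limits the small classes and genes near 50 UMIs, a count of 0 was set to 3 in ratios, and no setting can stand in for a second library per genotype.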
